A study of Mus musculus with 6 samples.

Results

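Strongly accessible regions that stand alone among weak ones were studied in ATAC-seq data from mouse hypothalamus. They were selected on their measured values: a mean of at least 16 and under 64 CPM (counts relative to the size of a library) over the 6 libraries, with a mean under 2 CPM in the 2 regions numbered before and the 2 numbered after. This rule picked 338 of 233801 regions, or 0.145%, and 3.27% of the 10341 regions of 16 to 64 CPM. The other 10003 regions of that level serve below as the comparison, and 51 of them failed the rule because a neighbouring number had no row.

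MYT1L is a neuronal transcription factor with zinc fingers, and the series is about the effect of its loss on hypothalamic chromatin. The WT group held 3 mice, the females 5 and 33 and the male 56. The Het group held 3 mice, the females 19 and 48 and the male 42. All were adult, at postnatal days 60 to 70, the numbers are the mouse numbers of the labels, and the design text calls the mice of a genotype biological replicates. The labels give no further allele, driver or treatment, and the Het genotype could not be checked at the Myt1l gene because the regions used here carry numbers and no gene names or positions. For the same reason tissue markers were not checked, no sequence is shown, and a distance below is a distance in region numbers, not in bases.

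In ATAC-seq the Tn5 transposase cuts and tags DNA that is free of nucleosomes, so the number of tagged fragments in a region is read as its accessibility. Accessible regions include promoters, enhancers and insulator sites bound by CTCF. Regulatory elements often lie in groups, while some stand far from other accessible DNA. The tissue was taken in bulk, so fewer cells with an accessible region and less accessibility per cell cannot be told apart.

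The deposited values had been adjusted by the authors with RUVr, which removes unwanted variation estimated from residuals. Of the 4 directions of variation within genotypes, 1 held only 0.0577% of that variance. Libraries summed to 24993700 to 25367300 adjusted counts, and 1 adjusted count was worth 0.0393 to 0.0400 CPM. A region at the members' median level thus had about 693 adjusted counts per library. Original read depth is not known, and values are printed without counting intervals. Library 56, a WT male, stood lowest over these regions, and some of the results that rest on it are given with and without it.

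The members covered the whole range of levels that the rule allows. Their mean was 16.04 to 63.98 CPM, with a median of 27.5 CPM and quartiles of 20.1 and 40.6 CPM. Of the 338, 208 had 16 to 32 CPM and 130 had 32 to 64 CPM. The upper class made up 38.5% of the members and 33.1% of the other regions of 16 to 64 CPM. The 2 edges of the level rule cut through a continuous range. Just inside lay all_hpt_peak_162134 at 16.04 CPM, all_hpt_peak_60366 at 16.06 CPM and all_hpt_peak_221747 at 16.08 CPM. Just outside, with weak neighbours as well, lay all_hpt_peak_149627 at 15.997 CPM, all_hpt_peak_225051 at 15.993 CPM and all_hpt_peak_208188 at 15.96 CPM. At the top, all_hpt_peak_206299 at 63.98 CPM, all_hpt_peak_52863 at 63.45 CPM and all_hpt_peak_2789 at 63.42 CPM were members, and all_hpt_peak_189793 at 64.14 CPM, all_hpt_peak_56173 at 64.31 CPM and all_hpt_peak_81276 at 64.47 CPM were not.

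The neighbours were weak by the rule. Weak regions were common, as 54.1% of all regions of the table had a mean under 2 CPM. Of the 1352 neighbour positions, 776 or 57.4% had a mean under 1 CPM. Their median was 0.893 CPM and the lowest was 0.271 CPM. Over the whole table, 156624 of 233801 regions had a mean of at least 1 CPM. The 57.4% was not set against the share under 1 CPM among other regions under 2 CPM. All 4 neighbours were under 1 CPM in 48 members. A member had 11.2 to 100 times the mean of its 4 neighbours, with a median ratio of 28.9. The highest ratio was that of all_hpt_peak_145758, at 47.2 CPM beside neighbours of 0.471 CPM on average. It was followed by all_hpt_peak_104416 at 60.1 CPM with neighbours at 0.613 CPM, and all_hpt_peak_48513 at 48.9 CPM with neighbours at 0.501 CPM. Members nearest the neighbour limit were all_hpt_peak_89475, all_hpt_peak_224673 and all_hpt_peak_57262, whose highest neighbours had 1.9998, 1.9986 and 1.9976 CPM. The nearest regions that failed were all_hpt_peak_60097, all_hpt_peak_108595 and all_hpt_peak_126851, with highest neighbours of 2.0024, 2.0053 and 2.0057 CPM.

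Beyond the 2 positions that the rule used, the surroundings of the members had the level of the table as a whole. At 3 to 5 numbers away the median was 1.66 CPM around members and 2.57 CPM around the other regions of 16 to 64 CPM, against 1.75 CPM over all regions. Regions of at least 16 CPM filled 3.71% of these positions around members and 10% around the others, against 4.77% in the whole table. At 21 to 50 numbers away the medians were 1.75 and 2.24 CPM. The other strong regions lay in stretches above the level of the table, and the members did not. The rule parted the 2 sets by their nearest neighbours, and how far this carries to more distant numbers was not tested. The nearest other region of at least 16 CPM was 12 numbers away in the median for members and 4 for the others, and it was more than 10 numbers away for 194 members (57.4%) and 22.8% of the others. Part of that distance is fixed by the rule, which keeps strong regions at least 3 numbers off.

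**Figure D1:**
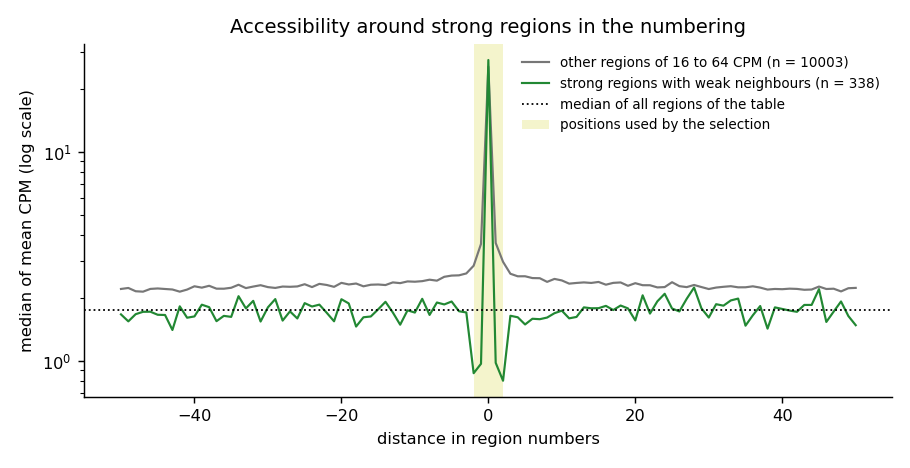
Median accessibility (mean CPM over the 6 libraries, log scale) at each distance in region numbers from the 338 strong regions with weak neighbours and from the 10003 other regions of 16 to 64 CPM. The shaded positions were used to choose the regions. Outside them the line of the 338 runs near the dotted median of all regions, 1.75 CPM, and the other line runs above it.

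Members were found along the whole numbering. In 10 equal stretches of region numbers they made up 2.3% to 4.98% of the regions of 16 to 64 CPM, with 25 to 49 members each. The lowest share was in the ninth stretch (29 of 1263) and the highest in the first (39 of 783). Consecutive members were 494 numbers apart in the median and up to 4445, and 6 of the consecutive pairs were at most 10 numbers apart. The closest pair was all_hpt_peak_110024 and all_hpt_peak_110027, which share the numbers between them as neighbours. The first had 54.2, 53.99 and 55.3 CPM in WT mice 5, 33 and 56 and 53.9, 54.3 and 58.2 CPM in Het mice 19, 42 and 48, in the order used for all regions below. Its partner had 26.8, 27.5 and 28.5 CPM in WT and 25.8, 26.3 and 24.97 CPM in Het. Next, at 4 numbers apart, came all_hpt_peak_220025 at 28.8 CPM with all_hpt_peak_220029 at 22.7 CPM, and all_hpt_peak_233896 at 19.6 CPM with all_hpt_peak_233900 at 16.8 CPM, a tie that the naming rule broke by the lower number. In the closest pair and the first of these the partners differed in level by more than the libraries did within either region, and in the tied pair they lay close together, at 17.7 to 21.05 and 15.5 to 17.6 CPM over the 6 libraries.

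The mice resembled each other in these regions. The highest library had 1.16 times the value of the lowest in the median member, and more than 1.5 times in 6 of 338. The SD around the genotype means on the log2(CPM + 0.5) scale had a median of 0.080 in members, with quartiles of 0.057 and 0.111. In the other regions of 16 to 64 CPM the median was 0.074. The same order was seen within both level classes: 0.088 against 0.080 at 16 to 32 CPM, and 0.071 against 0.063 at 32 to 64 CPM. No test was made of this difference, and RUVr made the SDs of both sets too small. With 1 mouse left out the members' median was 0.074 (without WT mouse 56) to 0.086 (without WT mouse 33). It was not set against the other regions there. Pearson's r between libraries across the 338 members was 0.957 to 0.99. It describes how far the order of levels is shared, and members are not replicates.

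**Figure D2:**
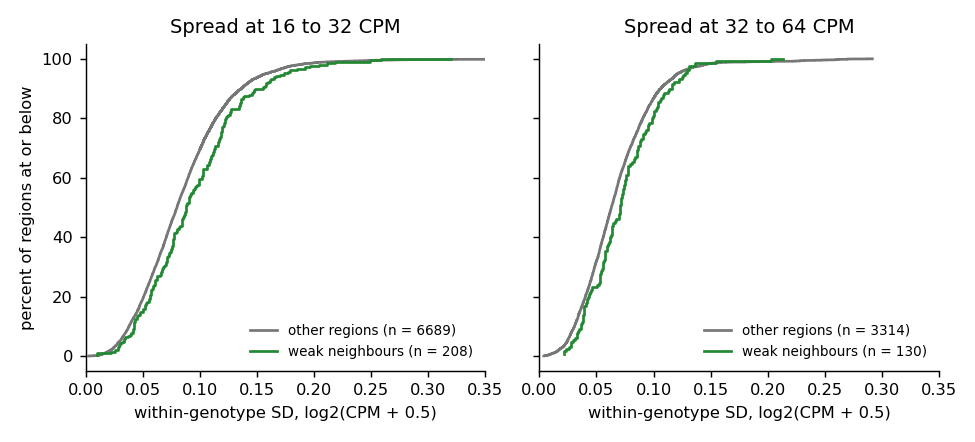
Cumulative share of regions (percent) by their SD around the genotype means of log2(CPM + 0.5), for 16 to 32 CPM and 32 to 64 CPM. In both panels the line of the strong regions with weak neighbours lies to the right of the other regions over most of its course, with medians of 0.088 and 0.080 on the left and 0.071 and 0.063 on the right.

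Single members ranged from near identity to clear differences between mice. The smallest SD, 0.010, was that of all_hpt_peak_128137, with 26.3, 25.9 and 25.8 CPM in WT and 25.9, 25.99 and 25.97 CPM in Het. It was followed by all_hpt_peak_1321 at 16.4 to 17.2 CPM and all_hpt_peak_91994 at 49.4 to 51.3 CPM over the 6 mice. The largest SD, 0.32, was that of all_hpt_peak_115756, with 18.8, 23.97 and 23.2 CPM in WT and 23.8, 20.97 and 13.6 CPM in Het. Here Het mouse 48 stood lowest and WT mouse 5 next, so the genotypes overlapped. The next largest was all_hpt_peak_221707, described below, and then all_hpt_peak_106175, at 20.7, 15.4 and 12.9 CPM in WT and 16.2, 16.8 and 19.03 CPM in Het. In that region WT mice held both the highest and the lowest value.

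WT mouse 56 was the lowest library in 134 of the 338 members. That is 39.6%, against 32.7% of the other regions of 16 to 64 CPM and 21.1% of the 156624 regions tested, whose mean was at least 1 CPM. Its mean deviation from the average of the 6 libraries was -0.0555 on the log2 scale in members and -0.0348 in the other regions of 16 to 64 CPM. Het mouse 19 was the highest library in 110 members, or 32.5%, with a mean deviation of 0.0383. It was also the highest in 27.1% of the other regions of 16 to 64 CPM, with a mean deviation of 0.0262 there. In members the remaining libraries deviated by -0.0087 to 0.0221. Members took 1.01% of all CPM in WT mouse 56 and 1.05% to 1.07% in the other libraries. Whether library 56 differs through its sex, its sample or the adjustment was not tested.

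**Figure D3:**
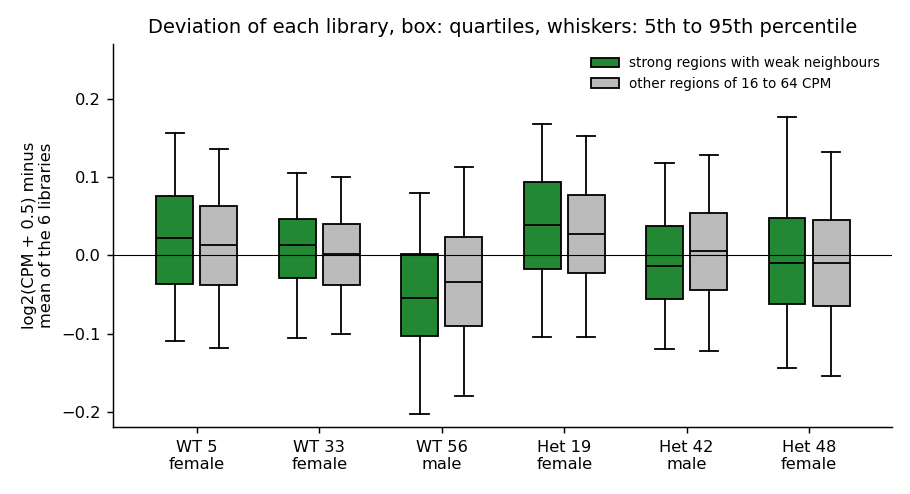
Deviation of each library from the mean of the 6 libraries, in log2(CPM + 0.5), for the 338 strong regions with weak neighbours and the 10003 other regions of 16 to 64 CPM (line: median, box: quartiles, whiskers: 5th to 95th percentile). WT 56 is the lowest library in both sets, with mean deviations of -0.0555 and -0.0348.

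The first comparison asked which members differ between Het and WT. In 3 members accessibility was higher in Het, by 1.33-fold to 1.40-fold, and in 0 was it lower. The limma fit used log2(CPM + 0.5) of all regions whose mean reached 1 CPM, with genotype and the direction of least variance as terms; that this is the direction RUVr took out was inferred from the values. A region was called at a Benjamini-Hochberg adjusted p under 0.05 over all 156624 regions. The same fit called 0.046% of all tested regions higher and 0.00958% lower in Het, so 3 of 338 (0.888%) is above the share over all regions. In the other regions of 16 to 64 CPM, 35 of 10003 (0.35%) were called higher and 4 (0.04%) lower. Under other neighbour rules the share was 0.348% (3 of 863) with neighbours under 3 CPM and 0.306% (4 of 1306) with the 2 nearest neighbours alone. With neighbours under 1 CPM or 6 weak neighbours, 0 of 48 or of 106 were called. With 0 to 4 calls in each set, whether the share depends on the rule cannot be told. At an unadjusted p under 0.05 there were 8 members higher (2.37%) and 1 lower (0.296%), below the 3.59% and 2.94% of all tested regions. These 8 and 1 became 8 and 8 when the libraries were quantile normalized, and 14 and 5 without the direction of least variance in the model. Leaving out 1 mouse gave up to 20 higher, without WT mouse 5, and up to 10 lower, without Het mouse 19. Without WT mouse 56 there were 7 higher and 9 lower.

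Region all_hpt_peak_221707 had 28.03, 23.3 and 18.5 CPM in WT mice 5, 33 and 56. In Het mice 19, 42 and 48 it had 31.6, 28.2 and 38.1 CPM. All Het values lay above all WT values, but Het mouse 42 exceeded WT mouse 5 by less than the spread within either genotype. Het averaged 32.6 ± 5.03 CPM and WT 23.3 ± 4.78 CPM (SD, n = 3), and the log2 change was 0.49 with an SE of 0.09 (limma adjusted p = 0.0100).

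Region all_hpt_peak_15727 had 33.4, 30.7 and 24.7 CPM in WT and 40.7, 34.4 and 44.5 CPM in Het, in the order of mice given above. The order of the 6 mice was that of all_hpt_peak_221707, with Het mouse 48 highest and WT mouse 56 lowest. Het averaged 39.9 ± 5.07 CPM and WT 29.6 ± 4.42 CPM (SD, n = 3), and the log2 change was 0.43 with an SE of 0.08 (limma adjusted p = 0.0118).

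The most accessible of the 3, all_hpt_peak_192350, had 50.2, 47.99 and 37.5 CPM in WT and 63.6, 50.8 and 66.0 CPM in Het. Again the male Het mouse 42 was within 1 CPM of WT mouse 5, and the other Het mice lay far above. Het averaged 60.1 ± 8.16 CPM and WT 45.3 ± 6.77 CPM (SD, n = 3), and the log2 change was 0.41 with an SE of 0.08 (limma adjusted p = 0.00655).

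These calls depend on how the error is estimated. The SE from the regions' own spread was 0.21, 0.17 and 0.17, against 0.09, 0.08 and 0.08 from limma, which draws each variance towards that of regions of like level. All 3 were also among the more variable members, with an SD within genotypes of 0.258, 0.203 and 0.213 against the median of 0.080. A two-sided exact permutation test of each gave p = 0.1, the smallest that 3 against 3 allows, so it cannot pass 0.05. Without the direction of least variance in the model 0 of the 338 passed (limma adjusted p = 0.319, 0.315 and 0.318 for the 3), and without an intensity trend in the variance prior 0 passed. Without WT mouse 56, Het mouse 19 or Het mouse 48, 0 passed, and without WT mouse 33 there was 1. Without WT mouse 56 the fitted log2 changes fell to 0.30 in all_hpt_peak_221707, 0.28 in all_hpt_peak_15727 and 0.25 in all_hpt_peak_192350 (limma adjusted p = 0.656, 0.593 and 0.525). That fit kept the direction of least variance found in all 6 libraries, so its changes are not plain differences of means.

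The 3 regions shared the order of all 6 libraries, which from high to low was Het 48, Het 19, Het 42, WT 5, WT 33 and WT 56. This order was found in 4 of 338 members (1.18%), in 0.86% of the other regions of 16 to 64 CPM and in 0.607% of all tested regions. The 3 were called for higher values in Het, which favours an order with Het above WT. Where all Het values lay above all WT values, it was the order of 4 of 18 members and 950 of 13278 tested regions. It was also the order of 17 of the 72 regions called higher in Het over the whole table. They are not near each other in the numbering. Within females the plain difference of the mean log2 values was 0.44 in all_hpt_peak_221707, 0.41 in all_hpt_peak_15727 and 0.40 in all_hpt_peak_192350. Between the single males it was 0.60, 0.47 and 0.43. The fit to females alone gave 0.40, 0.39 and 0.39.

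Their weak neighbours were not called. In the 12 neighbour positions, 3 had a mean of at least 1 CPM and were tested. Next to all_hpt_peak_221707, the Het mean of all_hpt_peak_221708 was 1.36 CPM and its WT mean 1.99 CPM (log2 change -0.42, limma adjusted p = 0.754). Next to all_hpt_peak_192350, all_hpt_peak_192351 had 1.23 and 1.44 CPM (log2 change -0.17, limma adjusted p = 0.937). Near all_hpt_peak_15727, all_hpt_peak_15729 had 1.61 and 1.46 CPM (log2 change 0.10, limma adjusted p = 0.967). Over all neighbours with a mean of at least 1 CPM, 0 of 575 were called in either direction. Over all tested regions 0.046% were called higher and 0.00958% lower, so 0 of 575 does not set the neighbours apart. At an unadjusted p under 0.05, 24 neighbours (4.17%) were higher and 20 (3.48%) lower in Het, near the 3.59% and 2.94% of all tested regions. The neighbours' median SE was 0.211 against 0.081 in members, so a change of the size seen in the members was harder to detect there.

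**Figure D4:**
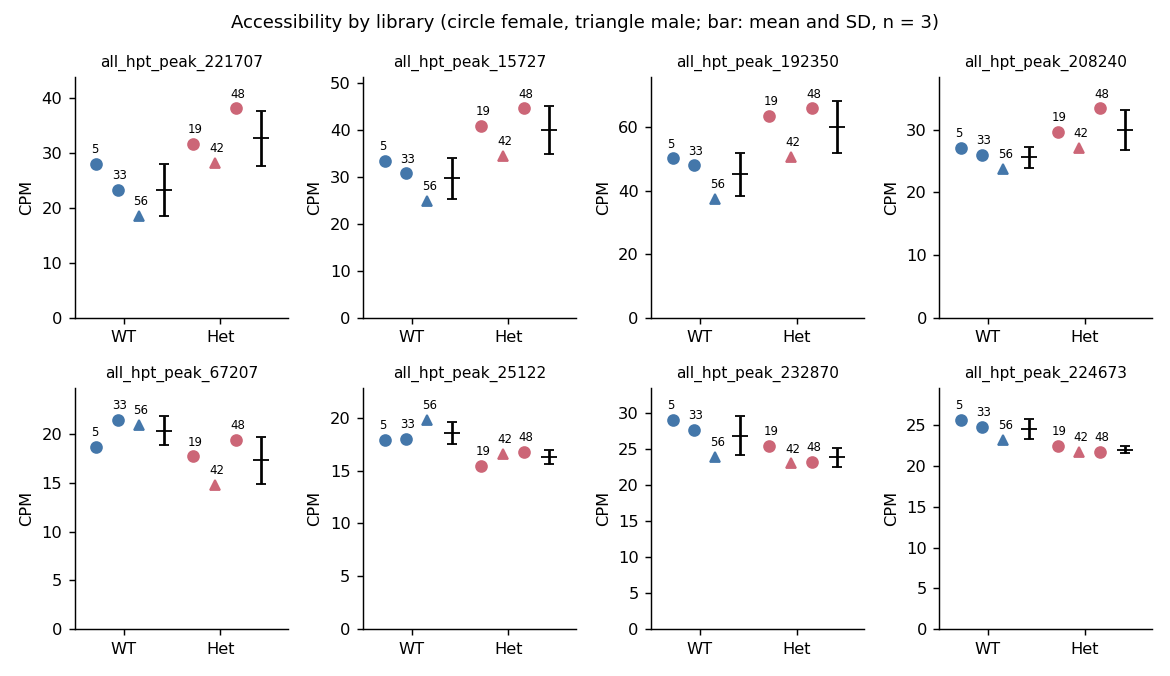
CPM of the 8 strong regions with weak neighbours named for the comparison of Het with WT, in each mouse (circle: female, triangle: male, number: mouse), with the mean and SD of each genotype (n = 3). In all_hpt_peak_221707, all_hpt_peak_15727 and all_hpt_peak_192350 mouse 48 is highest and mouse 56 lowest, and in the other 5 regions no test passed.

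The members next in order did not pass. Region all_hpt_peak_208240 had 27.04, 26.01 and 23.7 CPM in WT and 29.7, 27.02 and 33.4 CPM in Het (log2 change 0.22 with an SE of 0.08, limma adjusted p = 0.58), with Het mouse 42 just under WT mouse 5. In the other direction, all_hpt_peak_67207 had 18.7, 21.5 and 21.01 CPM in WT and 17.7, 14.8 and 19.5 CPM in Het (log2 change -0.24 with an SE of 0.09, limma adjusted p = 0.654). Its fitted change was -0.11 without WT mouse 33 or without Het mouse 42. In females alone it was -0.03 in the fit. Fits with fewer mice kept the direction of least variance found in all 6 libraries. That direction is then no longer balanced within genotypes, so a fitted change can differ from the plain difference of means. The plain difference of mean log2 values within females was -0.11. The genotypes overlapped in all_hpt_peak_208240 and in all_hpt_peak_67207. They did not overlap in all_hpt_peak_25122, with 17.9, 18.01 and 19.8 CPM in WT and 15.5, 16.6 and 16.8 CPM in Het (log2 change -0.18 with an SE of 0.09, limma adjusted p = 0.765). In all_hpt_peak_232870 the values were 29.1, 27.7 and 23.9 CPM in WT and 25.4, 23.0 and 23.2 CPM in Het (log2 change -0.16 with an SE of 0.08, limma adjusted p = 0.771). The last of these, all_hpt_peak_224673, had 25.7, 24.8 and 23.2 CPM in WT and 22.5, 21.7 and 21.8 CPM in Het (log2 change -0.15 with an SE of 0.08, limma adjusted p = 0.794). With 1 mouse left out, the fitted change was 0.15 to 0.31 in all_hpt_peak_208240, -0.25 to -0.13 in all_hpt_peak_25122, -0.27 to -0.08 in all_hpt_peak_232870 and -0.20 to -0.12 in all_hpt_peak_224673. These fits kept the same direction, so the ranges are not those of plain differences.

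Most members had nearly the same level in both genotypes. The median log2 change was 0.012, with a 5th percentile of -0.10 and a 95th percentile of 0.14. In the other regions of 16 to 64 CPM the median was 0.013 and these percentiles were -0.11 and 0.14. The 3 called members were the only ones beyond 1.2-fold (0.888%), against 0.78% of the other regions of that level and 15.2% of all tested regions, most of which are weaker and noisier. At the median SE of 0.081 a 95% interval for a single region spans a factor of 1.12 to either side, so changes of a few percent were not detectable. A call at the adjusted threshold needed more. Region all_hpt_peak_208240, with a log2 change of 0.22, was not called (limma adjusted p = 0.58). The SE also rests on adjusted values, whose spread RUVr made too small.

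The Het mean exceeded the WT mean in 187 of 338 members (55.3%), in 56.9% of the other regions of 16 to 64 CPM and in 49.8% of all tested regions. The share was 48.8% after quantile normalization and, with 1 mouse left out, 45.9% without WT mouse 56, 46.2% without Het mouse 19 and 58.6% to 62.4% without any of the others. By level it was 124 of 208 members (59.6%) at 16 to 32 CPM and 63 of 130 (48.5%) at 32 to 64 CPM, where the other regions had 56.7% and 57.2%. All Het values lay above all WT values in 18 members (5.33%, against 8.48% of all tested regions), with log2 changes of 0.05 to 0.49. In 12 members (3.55%, against 8.14%) they lay below, with log2 changes of -0.18 to -0.06. With 1 mouse left out the counts were 25 to 55 and 13 to 42, as fewer libraries have to be apart. Those counts were not set against the share over all tested regions. With all 6 libraries both shares were under those of the other regions of 16 to 64 CPM, 8.87% and 5.01%.

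**Figure D5:**
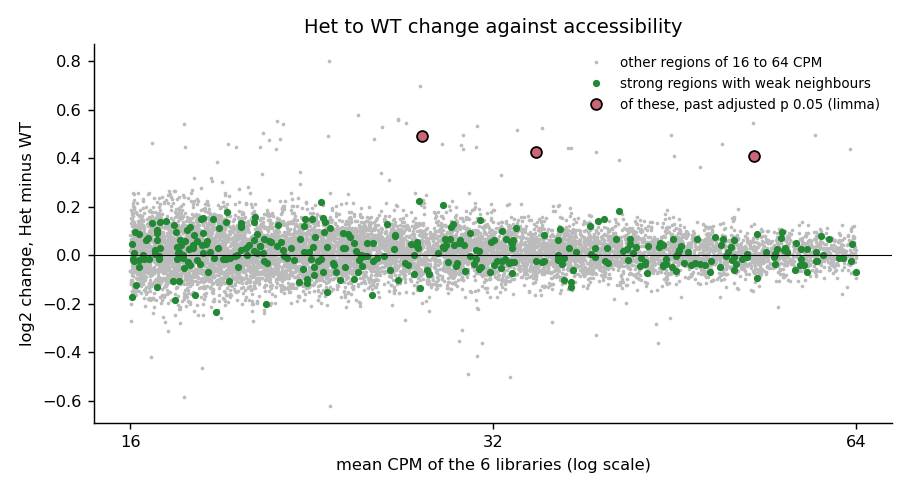
Log2 change from WT to Het against the mean CPM of the 6 libraries (log scale) for the strong regions with weak neighbours and the other regions of 16 to 64 CPM. The 3 regions past an adjusted p of 0.05 lie at 0.41 to 0.49, apart from the rest of the 338, which lie between -0.24 and 0.22.

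The second comparison set the 2 males against the 4 females with genotype in the model. Of the members, 237 (70.1%) had a lower mean in males, against 60.6% of the other regions of 16 to 64 CPM and 51.3% of all tested regions. The members' median fitted log2 difference, male minus female, was -0.045 with all libraries and -0.003 without WT mouse 56. The second fit has Het mouse 42 as its only male and kept the direction found in all 6 libraries. Its -0.003 is therefore not a plain difference. The members' mean deviation from the average of the 6 libraries was -0.0087 in Het mouse 42. In the Het females 19 and 48 it was 0.0383 and -0.00396. At an unadjusted p under 0.05 there were 32 members lower in males (9.47%) and 2 higher (0.592%). All tested regions gave 3.41% and 2.47%, and the other regions of 16 to 64 CPM gave 4.55% and 1.43%. Without an intensity trend in the variance prior 3 members (0.888%) were lower in males at this threshold, under the 3.15% of all tested regions and above the 0.38% of the other regions of 16 to 64 CPM. Without the direction of least variance in the model there were 53 (15.7%, against 7.38% of all tested regions). Without WT mouse 56, which leaves 1 male and 1 residual degree of freedom, there were 4 (1.18%, against 2.31%), and without WT mouse 5 there were 20. With 1 male per genotype, sex and the single mouse cannot be told apart.

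Past the adjusted threshold was 1 member, all_hpt_peak_192350, with a log2 difference of -0.37 ± 0.07 between males and females (SE; limma adjusted p = 0.00297). The call was lost without the direction of least variance in the model (limma adjusted p = 0.296) and without the trend (0.838). Without WT mouse 56 or Het mouse 42, which leaves 1 male, its fitted log2 difference was -0.33 or -0.40. Of all members, 4, 5 and 2 passed without Het mouse 19, WT mouse 33 and Het mouse 48, and 1 without WT mouse 5. Calls over all 156624 regions in these 4 fits were 46, 60, 50 and 7 higher and 74, 92, 72 and 20 lower in males. Each of these fits left 1 residual degree of freedom. In the main fit 0.0262% of all tested regions were called lower and 0.00575% higher in males. In all_hpt_peak_192350 the males had 37.5 and 50.8 CPM, and the females 50.2, 47.99, 63.6 and 66.0 CPM. The groups overlapped, as Het mouse 42 lay above both WT females. Next was all_hpt_peak_221707, at -0.38 ± 0.09 (SE; limma adjusted p = 0.101). Both are regions described above for genotype, and both comparisons use the same libraries. In the other direction all_hpt_peak_106291 had 23.4 and 24.9 CPM in males and 20.1 to 22.6 CPM in females (log2 difference 0.19, limma adjusted p = 0.837). Region all_hpt_peak_174325 had 31.0 and 32.4 CPM in males and 26.4 to 30.4 CPM in females (log2 difference 0.17, limma adjusted p = 0.842). In these 2 regions both males stood above all 4 females, without passing the test.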

How the data were processed

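ATAC-seq libraries of hypothalamus from 3 WT and 3 Het mice were grouped by their titles, and columns were matched through the sample descriptions. The authors deposited log2 CPM values after RUVr, per the file name and the values. The submitters' processing notes list the build mm10 and HTSeq, STAR, Bowtie2 and Trimmomatic for both of the study's data types. The peak caller, pooling of libraries and transposase shift are not given there. CPM were recovered by subtracting the prior of 0.0794 CPM, which stands for the lowest log2 value of the table, -3.65. What the region numbers follow is not stated in the sources used here, and 955 numbers up to 234756 have no row.

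The model in limma 3.58.1 (R 4.3.3) used log2(CPM + 0.5) of the 156624 regions whose mean reached 1 CPM, with an intensity trend in the variance prior, two-sided tests and Benjamini-Hochberg adjustment over all of them. The covariate was the within-genotype direction of least variance, taken as the direction that RUVr had removed; this was inferred from its share of the variance, not stated by the authors. It left 3 residual degrees of freedom, and the prior had 57.1. All 338 members passed the filter by their level. The members, the fit and the lists were chosen with earlier results of these data known. Regions named are those past the threshold (and up to 4 per direction by smallest p), the members at the edges of the rule, those with the highest ratio to neighbours, the largest and smallest SD and the smallest p between sexes, and the closest pairs. Alternatives were other pseudocounts, filters, scalings, models and neighbour rules, females alone and each library left out. Fits with libraries left out kept the direction found in all 6 libraries as the covariate.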

Additional observations from a re-analysis of the deposited data

How the results depend on the processing

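No paired analysis was possible because the labels give nothing that pairs a WT with a Het mouse. Membership was kept fixed except where the neighbour rule changed. The count of members called higher in Het, 3, held with the same 3 regions under both pseudocounts, both filters, quantile normalization, equal totals and sex as a covariate. It was 0 without the covariate, 0 without the variance trend, 1 in females alone and 0 to 3 with 1 library left out, and 0 of 48 or of 106 members with neighbours under 1 CPM or 6 neighbours, against 3 of 863 with neighbours under 3 CPM and 4 of 1306 with the 2 nearest; the cause was not tested. The count called lower, 0, held in all of them, with 1 member lower at an unadjusted p under 0.05 in the limma fit. The 8 higher and 1 lower at an unadjusted p became 14 and 5 without the covariate, 3 and 0 without the trend, 4 and 4 in females alone, 8 and 8 with quantile normalization and 8 and 3 with equal totals. The lower count was 2 with a filter at 3 CPM and 3 with sex added. With 1 library left out they were 6 to 20 and 1 to 10. The median SD within genotypes, 0.080, was 0.070 in females alone, 0.074 without WT mouse 56 and 0.091 with neighbours under 1 CPM.

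The rule gave 48 members with neighbours under 1 CPM, 863 with neighbours under 3 CPM, 1306 with the 2 nearest neighbours alone and 106 with 6 neighbours. In that order, the unadjusted counts were 1, 27, 32 and 3 higher and 0, 6, 13 and 0 lower. All tested regions gave 3.59% and 2.94%. Genotypes did not overlap in 1, 62, 95 and 8 members higher in Het and 2, 39, 63 and 3 lower, against 8.48% and 8.14% of all tested regions. The main counts of 18 and 12 were 55 and 47 in females alone and 25 to 55 and 13 to 42 with 1 library left out, where fewer libraries overlap less. These last counts were not set against the share over all tested regions and say nothing particular to the members. Between the sexes, the 1 call became 0 without the covariate, 0 without the trend and 1 to 5 with 1 female left out. Those fits left 1 residual degree of freedom. The 32 members lower in males, a count with alternatives chosen after seeing the data, became 53 without the covariate, 3 without the trend and 4 to 44 with 1 library left out. Each of the 8 regions named for genotype and the 4 for sex kept its direction in every alternative run. Depth before the adjustment is unknown, so what it limits was not estimated.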
